A study of Oryza sativa with 10 samples.

Results

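The comparison described here sets seeds of 2 overexpression lines against seeds of 2 CRISPR lines, all collected at 48 hours after fertilization (HAF). It takes 4 of the 10 RNA libraries of the study and every one of the 55801 features that the count files list. The overexpression side (OE) holds 1 library of line OE78-8, labelled as overexpressing MADS78 and called OE78 here, and 1 library of line OE79-3, labelled as overexpressing MADS79 and called OE79. The CRISPR side (CR) holds 1 library of line Cr78_8.22.2, edited at MADS78 and called CR78, and 1 library of line Cr79_11.25.3, edited at MADS79 and called CR79. Wild type (WT) gave 1 library at 48 HAF, and the same 5 genotypes gave 1 library each at 72 HAF. All were developing rice (Oryza sativa) seeds taken without the husk. The sources used here do not give the promoter of the overexpression constructs or the edits of the CRISPR lines. Each manipulated gene and direction is represented by 1 line, so the 2 lines of a side serve as its replicates although they target different genes. A p-value therefore measures only the spread between these libraries and an effect of the manipulated gene cannot be told apart from whatever else sets its line apart.

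MADS78 and MADS79 encode type I MADS-box transcription factors, a class of plant regulators known for roles in the female gametophyte and the early endosperm. At this age the rice endosperm is still largely a shared cytoplasm with many nuclei, and the timing of its division into cells is a known point of control of seed size. The seed also contains a young embryo and the maternal ovary wall and ovule tissues, so a library mixes filial and maternal RNA. Fewer cells of a type and less RNA per cell cannot be told apart in such libraries.

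Both targeted genes had low counts at 48 HAF. For MADS78 (LOC_Os09g02830) there were 6 reads in OE78 and 6 in OE79, against 1 in CR78 and 0 in CR79, and WT had 3. All of these are a handful of reads. The ratio of its summed reads, OE over CR, was 11.15 with an exact 95% interval of 1.65 to 476.5, which covers counting error only. MADS79 (LOC_Os01g74440) had 22 reads in OE78 and 39 in OE79, against 36 in CR78 and 34 in CR79, and WT had 33. The OE and CR libraries overlapped for MADS79, and the library labelled OE79 stood close to WT. Reads at the targeted genes therefore did not check the overexpression labels at 48 HAF, and OE78 and OE79 stand below for libraries labelled so. At 72 HAF the OE78 library had 2116 reads of MADS78, against at most 1 in the remaining 72 HAF libraries. MADS79 at that age had 0 reads in OE78 and 7 in OE79, against 3 in CR78 and 0 in CR79, and 20 in WT, so the library labelled OE79 lay below WT. The pairing of both names with these identifiers rests on published knowledge and not on the files.

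Totals of the 4 libraries ran from 15557079 to 16702537 counts, with 29352 to 31278 genes detected. Levels are given as CPM, counts scaled to a common library total after TMM adjustment, so they compare libraries for 1 gene and not genes of different length. The libraries did not separate cleanly by side. Distances were taken as the root mean square log2 difference across all 26632 genes tested, low counts included. They were 0.459 between OE78 and OE79, 0.545 between CR78 and CR79, and 0.452 between OE79 and CR78. OE78 was at 0.511 from CR78 and 0.589 from CR79. Differences of at least 4-fold were counted only for genes with at least 5 CPM in the higher library of a pair. They were fewest within a side, at 81 genes between OE78 and OE79 and 84 between CR78 and CR79. The 4 pairs of an OE and a CR library had 105 to 162 such genes. The widest distance among the 4 libraries was 0.603, between OE79 and CR79. CR79 was also the library farthest from WT, at 0.626, against 0.448 to 0.526 for the other 3. The summed levels of small heat shock protein and heat stress transcription factor genes were higher in CR78 than in every other 48 HAF library, as described below, and these results are given with and without CR78.

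Of 26632 genes tested with edgeR's quasi-likelihood test, 1 rose and 1 fell in OE relative to CR at an adjusted p under 0.05. Together these are 0.00751% of the genes tested, or 0.00375% in each direction. Before adjustment, 911 genes (3.42%) had a p under 0.05 and were higher in OE, and 936 (3.51%) were lower, together 1847 genes (6.94%). In 5453 genes (20.5%) both OE libraries lay above both CR libraries, and in 4824 (18.1%) both lay below. With a difference of at least 2-fold added to that condition, 919 genes (3.45%) remained above and 737 (2.77%) below. The median log2 fold change, OE over CR, was 0.0059 over all genes tested. With 2 libraries against 2, an exact permutation test of a single gene cannot give a two-sided p below 0.333, so the calls rest on the spread that edgeR shares across genes and libraries.

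The gene that rose was LOC_Os10g33500, for which the tables used here hold no name. It had 25.7 CPM in OE78 and 18.22 in OE79, against 0.189 in CR78 and 0.0614 in CR79, and 0.176 in WT. In reads this was 449 and 313 in the OE libraries, 3 and 1 in the CR libraries, and 3 in WT, so it was close to silent outside the OE lines. The log2 fold change was 7.38 (SE 0.501, edgeR adjusted p = 0.00386), and the ratio of summed reads was 176.9 with an exact 95% interval of 68.8 to 651. At 72 HAF it stood at 19.8 CPM in OE78 and 19.0 in OE79, against 0.676 in CR78 and 1.41 in CR79, and 0.278 in WT. The call is lost without CR78 (edgeR adjusted p = 0.0854) and without CR79 (adjusted p = 0.0619), while the log2 fold change stays between 6.80 and 8.31. Limma voom gave an adjusted p of 0.203 for it, and a fit of the 4 libraries alone gave 0.0514.

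The gene that fell was LOC_Os03g52940, also without a name here. It had 3.67 CPM in OE78 and 3.79 in OE79, against 17.8 in CR78 and 24.14 in CR79, with WT between the sides at 12.3. The log2 fold change was -2.49 (SE 0.249, edgeR adjusted p = 0.04996), a value at the threshold itself. Leaving out any 1 of the 4 libraries compared, OE78, OE79, CR78 or CR79, lost the call (edgeR adjusted p = 0.381, 0.14, 0.0862 and 0.115), as did several other settings given further on. At 72 HAF the sides overlapped, with 17.0 and 21.96 CPM in OE78 and OE79, against 20.0 and 16.2 in CR78 and CR79.

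The genes with the next smallest p values miss the threshold and are given as levels. LOC_Os01g35330 had 0.229 CPM in OE78 and 2.39 in OE79, against 128 in CR78 and 172 in CR79, and 0.176 in WT, so the CR lines were the ones that stood away from WT (log2 fold change -6.84, SE 0.799, edgeR adjusted p = 0.12). The same order held at 72 HAF, at 0.392 and 3.46 CPM in OE78 and OE79, against 82.5 and 102 in CR78 and CR79, where it passed the test (edgeR adjusted p = 0.0231). LOC_Os04g14690 had 6.07 CPM in OE78 and 14.2 in OE79, against 72.8 in CR78 and 45.7 in CR79, and 20.2 in WT (edgeR adjusted p = 0.238). LOC_Os07g38630 had 28.2 and 43.1 CPM in OE78 and OE79, against 89.6 and 131 in CR78 and CR79, and LOC_Os04g33110 had 28.5 and 35.2 CPM in OE, against 65.1 and 61.7 in CR. On the other side, LOC_Os07g48830 had 5.84 CPM in OE78 and 5.01 in OE79, against 0.63 in CR78 and 0.184 in CR79, but 13.4 in WT. Here the OE libraries were the ones nearer to WT. LOC_Os04g13210 had 11.4 and 11.1 CPM in OE78 and OE79, against 3.97 and 2.46 in CR78 and CR79, and 9.64 in WT. The defence genes PBZ1 and Rcb4, described below, complete this group.

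A gene that is on in a whole side and off in the other was rare. In 2 genes both OE libraries had at least 5 CPM and both CR libraries under 0.5 CPM, and in 0 genes the reverse held. The 2 genes were LOC_Os10g33500 and LOC_Os04g13000, the second chosen after its values were seen. LOC_Os04g13000 had 45.1 CPM in OE78 and 7.10 in OE79, against 0.126 in CR78 and 0.369 in CR79, and no read in WT (log2 fold change 6.67, SE 1.20, edgeR adjusted p = 0.346). Its OE libraries differed from each other by over 6-fold.

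The 2 main heat stress lists had the lowest medians of all lists read, and no member of them passed the threshold. Heat stress transcription factors (HSFs) bind the promoters of chaperone genes. Class A members activate them, and the HsfA2 genes are themselves induced by heat in rice. Small heat shock proteins hold unfolding proteins in a soluble state, and HSP101 pulls proteins out of aggregates. Of 11 small heat shock protein genes, all of them tested, 0 passed the threshold, 7 were lower in OE at an unadjusted p under 0.05 (beside the 3.51% of all genes), and 6 had both OE libraries below both CR libraries, beside 18.1% of all genes. Their median log2 fold change was -1.28. Of 7 heat stress transcription factor genes in the main list, all tested, 3 had both OE libraries below CR and 1 had both above, with a median of -0.90. Over these lists and the further heat genes given below, DESeq2 called 4 transcription factors and 5 small heat shock proteins, and edgeR without a filter on low counts 6 and 8, all lower in OE. Over all genes, DESeq2 called 69 of 20952 lower in OE, and edgeR without a filter 275 of 40329. The lists were chosen with earlier results of these libraries known, and their direction is no independent evidence.

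Among the transcription factors, HsfA2c (LOC_Os10g28340) had 25.0 CPM in OE78 and 34.2 in OE79, against 253 in CR78 and 118 in CR79, and 58.9 in WT. The CR libraries were above WT and the OE libraries below it. The log2 fold change was -2.65 (SE 0.437, edgeR adjusted p = 0.285). HsfA2d (LOC_Os03g06630) had 20.0 CPM in OE78 and 32.2 in OE79, against 116 in CR78 and 86.1 in CR79, and 45.3 in WT (log2 fold change -1.95, SE 0.296, edgeR adjusted p = 0.238). It showed the same order of sides as HsfA2c. HsfA2a (LOC_Os03g53340), named after its values were seen like the heat genes that follow, had 0.916 CPM in OE78 and 0.524 in OE79, against 128 in CR78 and 7.19 in CR79, and 13.1 in WT. Its CR libraries differed from each other by more than 10-fold, and the log2 fold change of -6.53 had an SE of 1.43 (edgeR adjusted p = 0.465). HsfB2a (LOC_Os04g48030), of the class that lacks the activation domain, had 13 and 14.3 CPM in OE78 and OE79, against 44.0 and 36.3 in CR78 and CR79, and 18.9 in WT. HsfA3 (LOC_Os02g32590) had 30.1 CPM in OE78 and 68.5 in OE79, against 168 in CR78 and 101 in CR79, but 197 in WT, so for this gene WT lay beyond the CR side. The other members did not all share this order. HsfB1 (LOC_Os09g28354) was higher in OE, at 16.8 and 20.3 CPM against 13.7 and 13.1, and HsfA1 (LOC_Os03g63750) differed little, at 87.0 and 80.0 CPM in OE78 and OE79, against 75.6 and 71.7 in CR78 and CR79.

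Among the small heat shock proteins, HSP24.1 (LOC_Os02g52150) had 10.5 CPM in OE78 and 7.22 in OE79, against 170.5 in CR78 and 78.6 in CR79, and 35.8 in WT (log2 fold change -3.81, SE 0.595, edgeR adjusted p = 0.266). HSP18.0 (LOC_Os01g08860) had 27.0 and 16.8 CPM in OE78 and OE79, against 155 and 71.7 in CR78 and CR79, and 64.5 in WT (log2 fold change -2.37, edgeR adjusted p = 0.282). For both genes even the lower CR library stood more than 2-fold above the higher OE library. HSP17.4 (LOC_Os03g16020) had 7.16 and 4.89 CPM in OE78 and OE79, against 84.9 in CR78 and 13.4 in CR79. HSP18.1 (LOC_Os03g16030) had 9.16 and 5.47 CPM in OE, against 90.7 in CR78 and 10.5 in CR79. For these neighbouring gene copies the difference was large against CR78 and small against CR79, and reads may be split between them. HSP26.7 (LOC_Os03g14180) and HSP16.0 (LOC_Os06g14240) were lower in both OE libraries as well, at 1.20 and 2.10 CPM against 20.5 and 4.91, and at 1.32 and 1.69 CPM against 12.7 and 7.99. HSP17.9B (LOC_Os01g04350) went the other way, with 25.0 CPM in OE78 and 16.8 in OE79, against 15.4 in CR78 and 10.01 in CR79.

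The larger chaperones depended on CR78. HSP101 (LOC_Os05g44340) had 14.3 CPM in OE78 and 10.9 in OE79, against 143 in CR78 and 11.18 in CR79, and 15.2 in WT. CR78 alone was high, and the log2 fold change was -2.61 with CR78 and 0.18 without it. Without CR79 it was -3.50 and passed the threshold (edgeR adjusted p = 0.0197). HSP81-1 (LOC_Os08g39140), an HSP90 chaperone, had 417 and 440.3 CPM in OE78 and OE79, against 741 and 489.8 in CR78 and CR79, and 882 in WT. The list of 8 HSP100, HSP90 and HSP70 genes, all tested, had a median of -0.08, with 2 members below CR and 0 above, beside 18.1% and 20.5% of all genes.

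**Figure D1:**
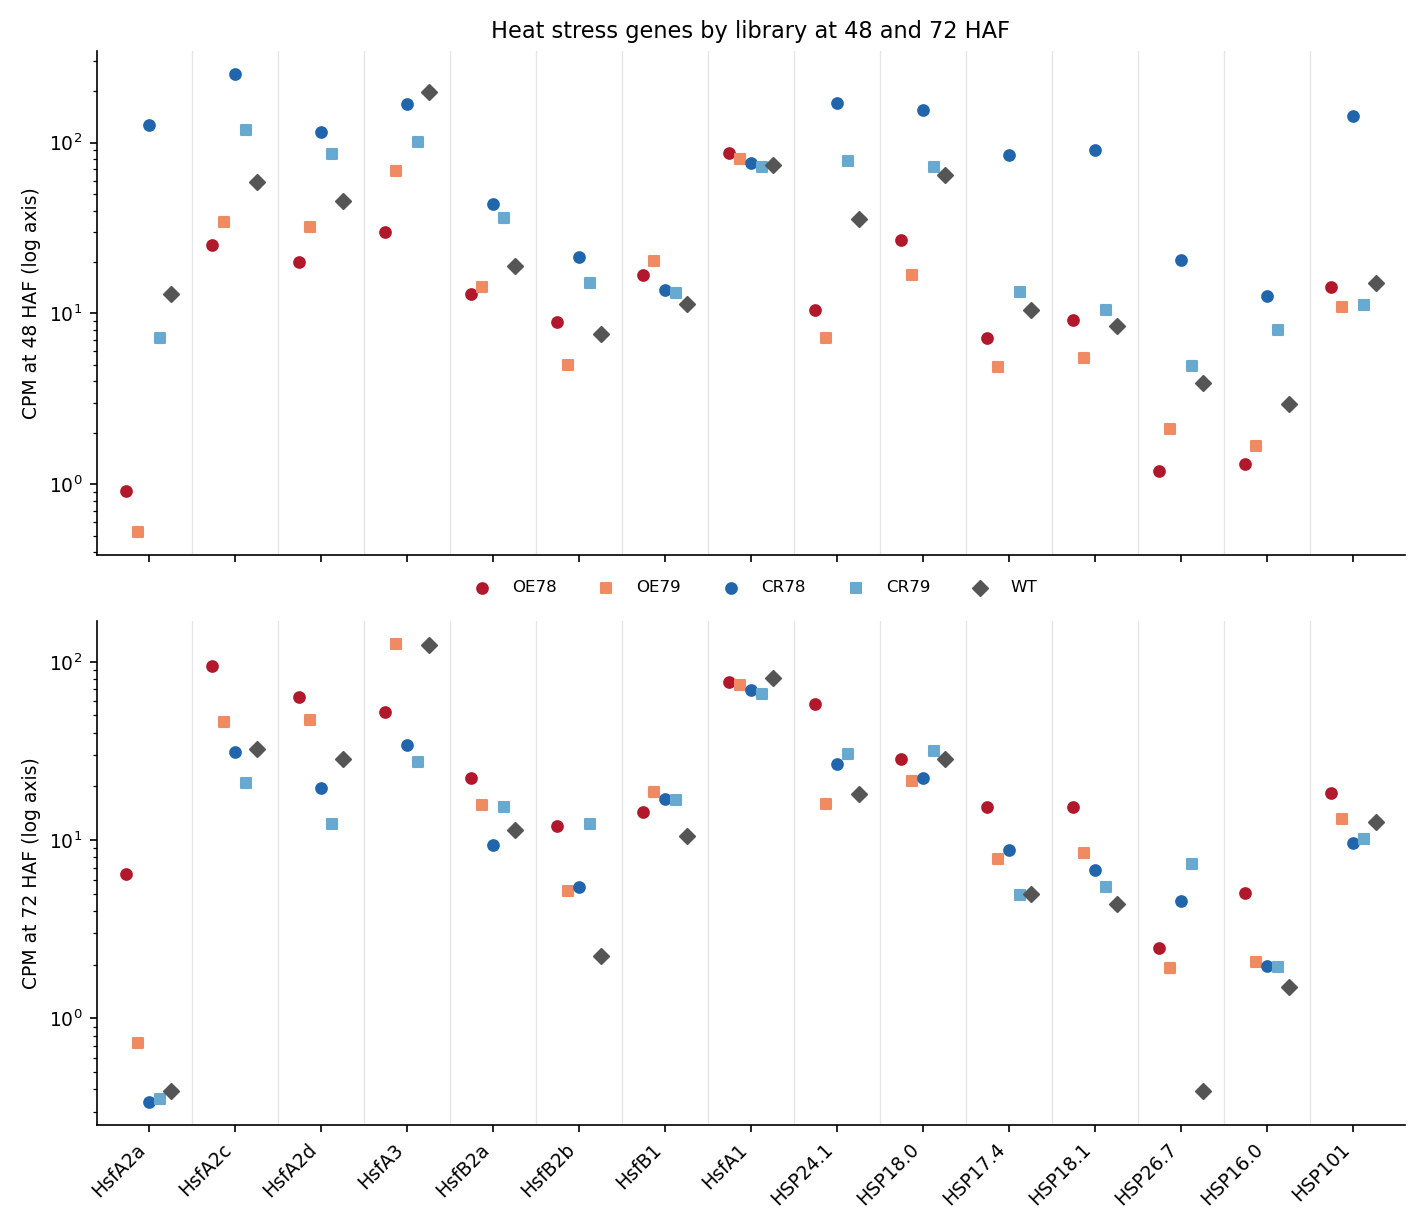
CPM of 15 heat stress genes on a log axis in each library, at 48 HAF in the upper panel and at 72 HAF in the lower. At 48 HAF the OE libraries are lowest for HsfA2c and HsfA2d and CR78 is highest, while at 72 HAF the OE libraries are the higher ones for both genes.

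Leaving out CR78 moved the small heat shock protein median to -0.32, with 6 of 11 members below CR79 alone, beside 37.3% of all genes in that setting. Without CR79 the median was -2.0 with 10 of 11 below CR78, beside 32.0% of all genes. The transcription factor median was -1.12 without CR78, with 6 of 7 below CR79, but 0.28 without CR79, where it turned sign. Summed over the tested members, small heat shock proteins came to 126 CPM in OE78 and 84.7 in OE79, against 656.5 in CR78 and 245 in CR79, and 191 in WT. The transcription factors came to 144 and 153 CPM in OE78 and OE79, against 459 and 333 in CR78 and CR79, and 205 in WT. On both sums WT lay between the sides. A set of 16 further transcription factors, 14 of them tested, had a median of -0.04, and 11 further small heat shock proteins, 8 of them tested, had -0.29. Both sets were added after values were seen, as were 5 other stress genes, which had a median of 0.14 and included DREB2A (LOC_Os01g07120) at 20.2 and 20.8 CPM in OE, against 17.3 and 20.0 in CR. The part that CR78 as a single library plays in the heat result cannot be told apart from that of its genotype.

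Most of the defence genes tested were higher in the OE libraries, again with no member past the threshold. Rice makes diterpenoid phytoalexins, the phytocassanes and momilactones, through copalyl diphosphate synthases (CPS), kaurene synthase-like cyclases (KSL) and cytochrome P450 enzymes (CYP) whose genes lie in clusters. Chitinases break down fungal cell walls, and PBZ1 is a pathogenesis-related protein of the PR10 family. These lists were added after values had been seen. Of 15 phytoalexin genes, 12 were tested. Among the tested members 10 had both OE libraries above both CR libraries and 0 had both below, beside 20.5% and 18.1% of all genes, and the median log2 fold change was 1.84. DESeq2 called 2 of the phytoalexin genes, edgeR without a filter on low counts 4, and among the chitinase and PBZ1 genes described next these called 2 and 5, all higher in OE. Over all genes, DESeq2 called 33 of 20952 higher in OE, and edgeR without a filter 157 of 40329. At levels this low a gene can enter the test through its OE reads alone, so the counts of list members describe the tested members only.

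KSL7 (LOC_Os02g36140), a cyclase of phytocassane synthesis, had 12.7 CPM in OE78 and 16.6 in OE79, against 2.90 in CR78 and 1.54 in CR79, and 1.82 in WT (log2 fold change 2.72, SE 0.536, edgeR adjusted p = 0.377). CYP71Z7 (LOC_Os02g36190) had 18.21 and 21.7 CPM in OE78 and OE79, against 5.92 and 3.56 in CR78 and CR79, and 5.23 in WT. CPS2 (LOC_Os02g36210), which makes the ent-copalyl diphosphate that KSL7 uses, had 24.05 and 40.8 CPM in OE78 and OE79, against 10.2 and 3.99 in CR78 and CR79, and 8.35 in WT. In these 3 neighbouring genes WT stood with the CR side. CPS4 (LOC_Os04g09900), the syn-copalyl diphosphate synthase of the momilactone cluster, had 8.48 CPM in OE78 and 25.8 in OE79, against 6.04 in CR78 and 3.56 in CR79, and 3.88 in WT. OE79 was the high library here, and OE78 differed little from CR78. CYP99A3 (LOC_Os04g09920) of the same cluster had 1.66 CPM in OE78 and 5.59 in OE79, against 1.20 in CR78 and 0.184 in CR79. Summed over the tested members, phytoalexin genes came to 82.0 CPM in OE78 and 137 in OE79, against 35.1 in CR78 and 18.4 in CR79, and 25.2 in WT.

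PBZ1 (LOC_Os12g36880) had 326 CPM in OE78 and 283 in OE79, against 97.8 in CR78 and 66.5 in CR79, and 58.1 in WT. Both OE libraries were above all the others (log2 fold change 1.89, SE 0.264, edgeR adjusted p = 0.238). Rcb4 (LOC_Os10g28080), a chitinase gene, had 6.70 and 8.21 CPM in OE78 and OE79, against 1.13 and 1.04 in CR78 and CR79, and 1.82 in WT (log2 fold change 2.77, SE 0.448, edgeR adjusted p = 0.282). Cht1 (LOC_Os06g51060) had 217 and 173 CPM in OE78 and OE79, against 131 and 56.0 in CR78 and CR79, and 78.2 in WT. Its neighbour Cht3 (LOC_Os06g51050) had 85.6 and 129 CPM in OE78 and OE79, against 84.2 and 21.99 in CR78 and CR79, so OE78 and CR78 hardly differed, and reads may be split between these copies. Cht6 (LOC_Os02g39330) had 105 and 70.9 CPM in OE78 and OE79, against 38.5 and 18.9 in CR78 and CR79, but 133 in WT, which lay with the OE side. Of 14 chitinase and PBZ1 genes 12 were tested, 8 had both OE libraries above and 0 below, beside 20.5% and 18.1% of all genes, and the median was 0.93. It was 1.998 without CR78 and 0.41 without CR79, so it was larger against CR79 alone than against CR78 alone. The phytoalexin median was 3.01 without CR78, 1.54 without CR79, 2.32 without OE78 and 1.34 without OE79.

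**Figure D2:**
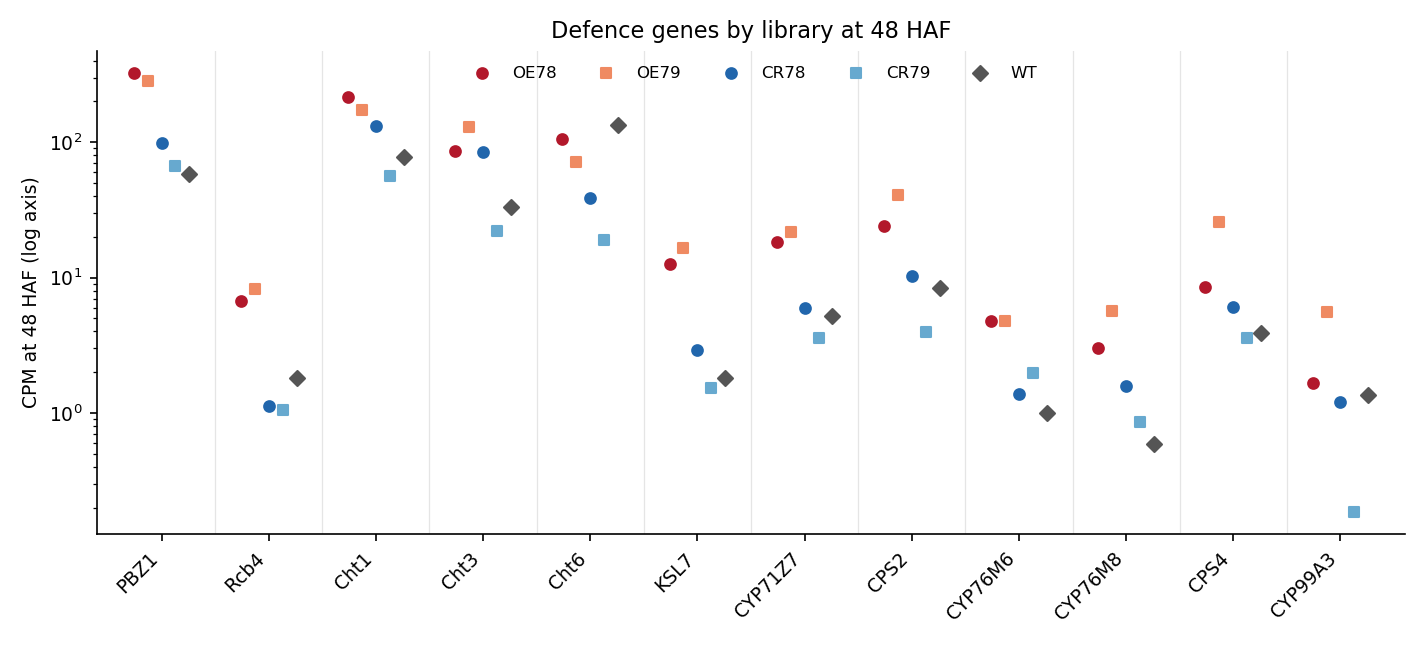
CPM on a log axis of 12 defence genes in each 48 HAF library. Both OE libraries lie above both CR libraries for each gene shown, WT lies with CR for PBZ1, KSL7 and CYP71Z7, and WT lies above OE for Cht6.

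The OE over CR difference was read separately within each targeted gene. The 18343 genes at 5 CPM or more in any of the 4 libraries compared were used. Across them, OE78 over CR78 and OE79 over CR79 correlated at r = 0.078, a description across genes from pairs that share no library. Both ratios were above 1 in 4896 of these genes (26.69%) and below 1 in 4551 (24.8%). Of 31 heat genes at that level 17 were lower in OE within both pairs and 4 higher, and of 16 defence genes 14 were higher within both and 0 lower. A gene can reach that level through the libraries of 1 side alone. The defence lists and part of the heat genes were also added after values were seen. These counts therefore describe the genes at that level only and are no independent evidence of a direction. The small heat shock protein list had a median of -1.59 for OE78 over CR78 and -0.72 for OE79 over CR79. The transcription factor list had 0.27 and -1.41, opposite in sign, although HsfA2a, HsfA2c and HsfA2d were lower in OE within both pairs. The phytoalexin list had 0.81 and 2.48, and the chitinase and PBZ1 list 0.44 and 1.57.

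**Figure D3:**
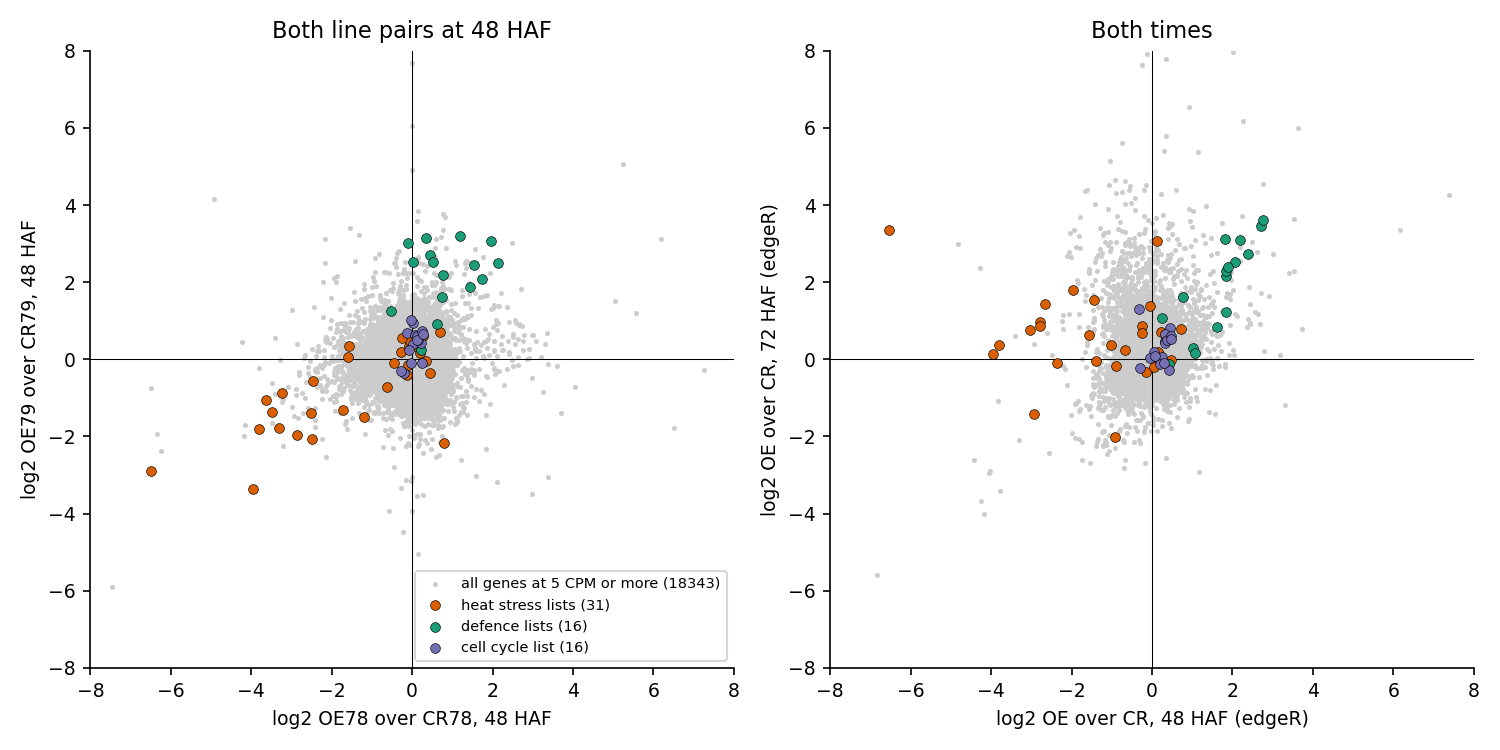
Left, log2 OE78 over CR78 (horizontal) against log2 OE79 over CR79 (vertical) at 48 HAF for 18343 genes; right, the edgeR log2 OE over CR at 48 HAF (horizontal) against 72 HAF (vertical), with 7 points outside the axes. Heat genes reach the lower left in the left panel and lie mostly above 0 on the 72 HAF axis, while most defence genes lie at the upper right in both panels.

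Cell cycle genes differed by small amounts. Of 16 DNA replication and cell cycle genes, all tested, 0 passed the threshold, 9 had both OE libraries above both CR libraries and 1 had both below, beside 20.5% and 18.1% of all genes, and the median log2 fold change was 0.31. The members above CR were mainly genes of DNA replication. MCM2 (LOC_Os11g29380), a subunit of the replicative helicase, had 142 CPM in OE78 and 156 in OE79, against 119 in CR78 and 94.0 in CR79, and 133 in WT (log2 fold change 0.48, SE 0.163, edgeR adjusted p = 0.698). PCNA (LOC_Os02g56130), which holds DNA polymerase on its template, had 223 and 222 CPM in OE78 and OE79, against 189.8 and 165 in CR78 and CR79, and 188 in WT. MCM7 (LOC_Os12g37400) had 63.7 and 71.6 CPM in OE78 and OE79, against 52.4 and 45.4 in CR78 and CR79. CDKB2 (LOC_Os08g40170), a cyclin-dependent kinase of mitosis, had 198 and 196 CPM in OE78 and OE79, against 183 and 139 in CR78 and CR79, and 206 in WT. The inhibitor genes KRP1 (LOC_Os02g52480) and KRP3 (LOC_Os11g40030) had log2 fold changes of -0.29 and -0.33. CR79 was the lowest library for MCM2, PCNA, MCM7 and CDKB2, and the list median was 0.12 without CR79 and 0.48 without CR78. Within the line pairs the list median was 0.05 for OE78 over CR78 and 0.50 for OE79 over CR79.

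Lists of sucrose cleavage, sugar transport and starch synthesis genes had medians from -0.11 to 0.30. Sucrose synthases and invertases split the sucrose that reaches the seed. Of 11 sucrose cleavage genes 10 were tested, 4 had both OE libraries above CR and 0 below, beside 20.5% and 18.1% of all genes, and the median log2 fold change was 0.30. At an unadjusted edgeR p under 0.05, 3 of the tested genes were higher in OE and 0 lower, beside 3.42% and 3.51% of all genes. SUS1 (LOC_Os03g28330), a sucrose synthase, had 470.1 CPM in OE78 and 524 in OE79, against 408 in CR78 and 384 in CR79, and 428.5 in WT. SUS4 (LOC_Os03g22120) had 37.2 and 26.6 CPM in OE78 and OE79, against 20.6 and 20.8 in CR78 and CR79, and the invertase gene CIN1 (LOC_Os02g33110) had 51.0 and 40.8 CPM in OE, against 30.7 and 11.6 in CR. For CIN1 the 2 CR libraries differed from each other more than CR78 differed from OE79. For the 7 sugar transport genes the median was -0.11 and no member was separated, SWEET11 (LOC_Os08g42350) standing at 415 and 319.7 CPM in OE, against 359 and 507 in CR. For the 26 genes of starch synthesis it was 0.08, with 8 above CR and 5 below, beside the same shares of all genes. The most abundant of them, LOC_Os05g50380, had 1733 and 1724 CPM in OE78 and OE79, against 1819 and 1842 in CR78 and CR79. No starch, sucrose or transport gene of these lists passed the threshold at 48 HAF. At 72 HAF 8 of the 26 starch genes were lower in OE past the threshold, where 0.973% of all genes passed in either direction.

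Among markers of differentiated endosperm, storage protein genes were low and transcription factor genes varied by library. Of 6 seed storage protein genes, 4 had no read in any of the 4 libraries, and the sum over the tested members was 3.53 to 4.54 CPM. GluA2 (LOC_Os10g26060), a glutelin gene, made up most of it, at 4.01 and 4.31 CPM in OE, against 3.53 and 3.75 in CR. The 6 endosperm transcription factor genes summed to 9.45 CPM in OE78 and 1.51 in OE79, against 6.55 in CR78 and 16.7 in CR79, and 1.24 in WT, with no order by side.

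Among other MADS genes, those of type II ran from a log2 fold change of -0.855 to 0.548. Of 23 type II MADS genes, all tested, 7 had both OE libraries below both CR libraries and 2 above, beside 18.1% and 20.5% of all genes, and the median was -0.16. MADS8 (LOC_Os09g32948), a SEPALLATA type gene, had 1063 CPM in OE78 and 1159 in OE79, against 1252 in CR78 and 1421 in CR79, and 1128 in WT. MADS6 (LOC_Os02g45770), of the AGL6 type, had 140.5 and 134 CPM in OE78 and OE79, against 164 and 155 in CR78 and CR79. MADS29 (LOC_Os02g07430), the B-sister gene of the ovule and seed coat, had 115 and 117 CPM in OE, against 131 and 136 in CR. MADS14 (LOC_Os03g54160) was one of the 2 above CR, at 13.7 and 17.6 CPM against 11.9 and 9.52. The 3 other type I MADS genes had a median of -0.11 and summed to 9.45 and 9.08 CPM in OE, against 9.32 and 9.52 in CR, so their total was level. Among 12 chromatin and DNA methylation genes the median was 0.07. CMT3a (LOC_Os10g01570), a chromomethylase, had 106 and 101 CPM in OE78 and OE79, against 80.8 and 77.8 in CR78 and CR79, and 84.8 in WT (log2 fold change 0.39, SE 0.135, edgeR adjusted p = 0.698). The argonaute list (13 of 14 tested) had a median of 0.12.

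Hormone lists had medians within 0.3 of 0. The gibberellin list (13 of 15 tested) stood at 0.04, cytokinin turnover (7 of 7) at 0.18, auxin synthesis (3 of 5) at -0.13, abscisic acid turnover (8 of 8) at -0.23 and abscisic acid response (16 of 18) at 0.17. ABA8ox3 (LOC_Os09g28390), which breaks down abscisic acid, had 18.9 CPM in OE78 and 38.5 in OE79, against 56.1 in CR78 and 56.3 in CR79, and 56.6 in WT. OE78 was the lowest of the 4 libraries there and in the next pair of genes. DHN1 (LOC_Os02g44870), a dehydrin, had 399.7 CPM in OE78 and 802 in OE79, against 889.7 in CR78 and 569.9 in CR79. PP2C30 (LOC_Os03g16170), a phosphatase of abscisic acid signalling, had 95.2 and 188 CPM in OE, against 272 and 193 in CR. Growth lists had medians of 0.03 for cell wall synthases, -0.13 for aquaporins and -0.01 for grain size genes, and vacuolar processing enzymes stood at -0.06. The line pairs differed in sign in the growth lists. For OE78 over CR78 and OE79 over CR79 the medians were -0.27 and 0.34 for cell wall synthases. They were -0.36 and 0.06 for aquaporins, and -0.35 and 0.31 for grain size genes. A cluster of 4 genes on chromosome 1, listed as MAP3K genes by names that could not be checked, had a median of -0.63. Its sum was 85.4 CPM in OE78 and 187.5 in OE79, against 295 in CR78 and 184 in CR79.

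**Figure D4:**
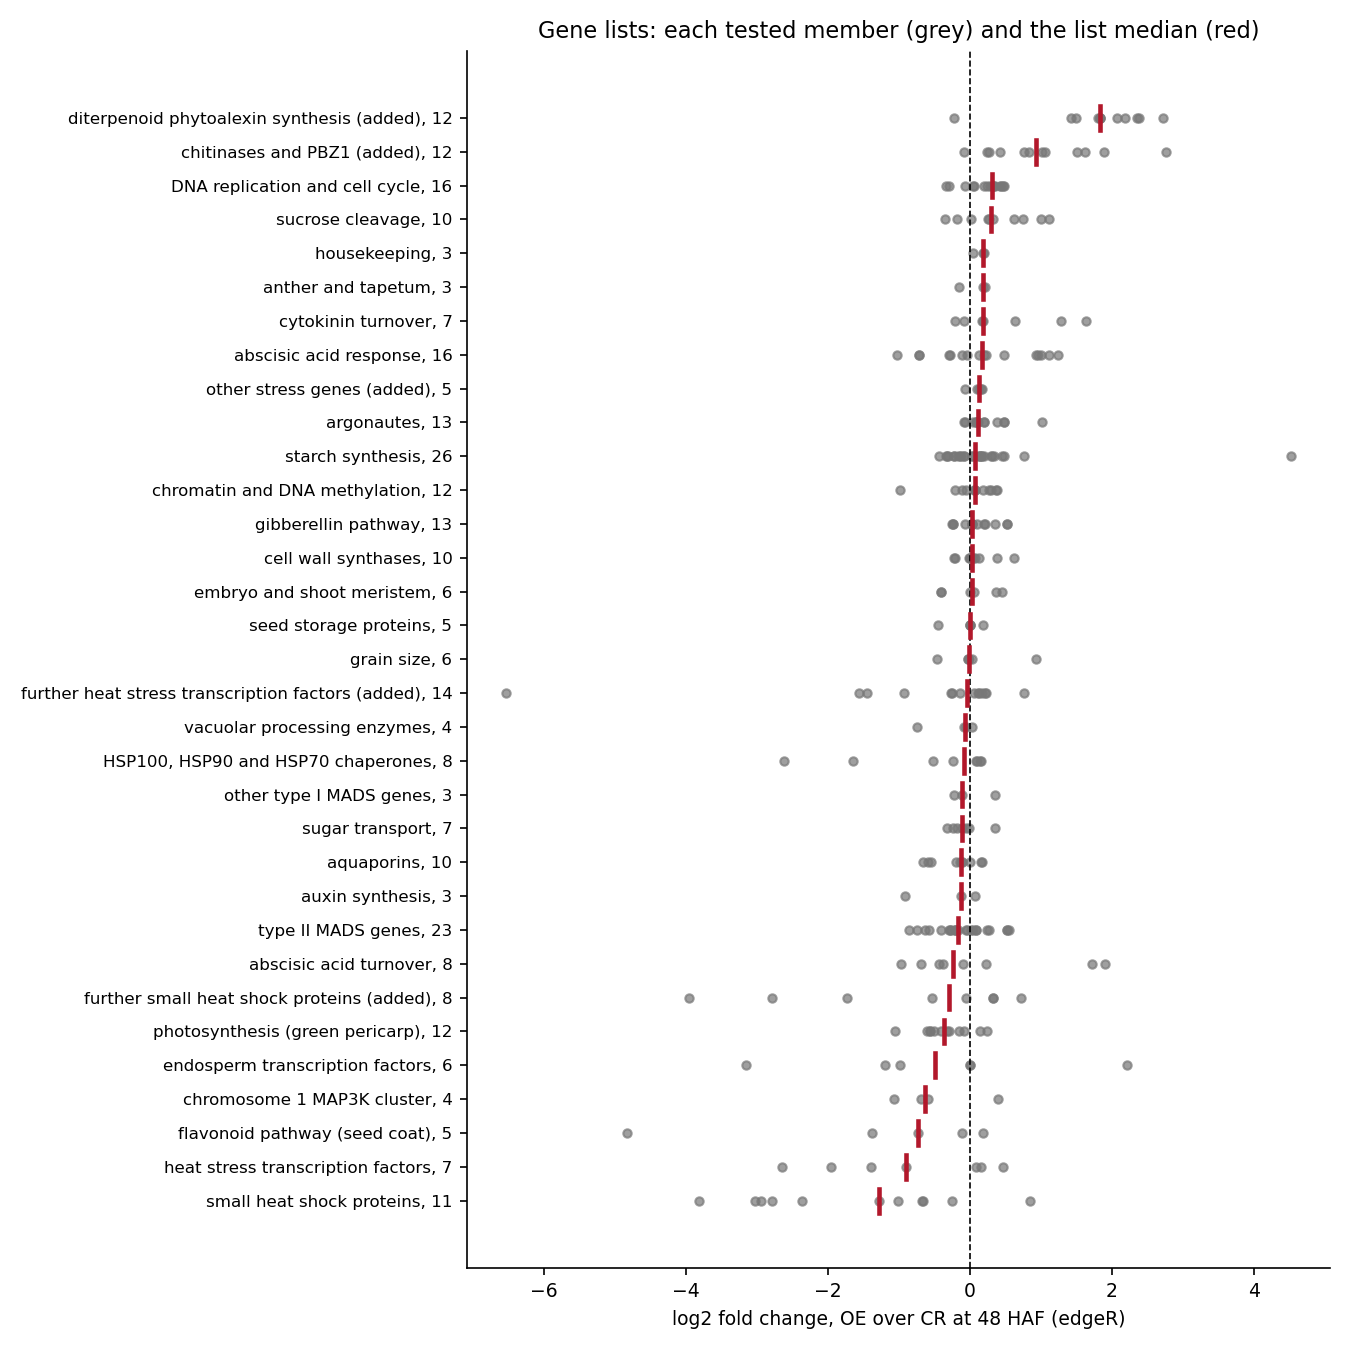
Log2 fold change, OE over CR at 48 HAF, of every tested list member (grey points) and the median of each list (red bars), without MADS78 and MADS79. The number of tested members stands beside the name, and lists added after values were seen are marked as such. Phytoalexin genes have the highest median at 1.84 and small heat shock proteins the lowest at -1.28, while most lists lie within 0.4 of 0.

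Markers of tissues other than endosperm were read in the same libraries. The green pericarp list of photosynthesis genes (12 of 13 tested) summed to 4396 CPM in OE78 and 4792 in OE79, against 4673 in CR78 and 6948 in CR79, and 5226 in WT, so CR79 was high. RBCS1 (LOC_Os12g19470), a small subunit of Rubisco, had 58.0 and 39.4 CPM in OE, against 50.3 in CR78 and 152 in CR79. The list median was -0.36 with CR79 and 0.01 without it. Of the flavonoid genes of the seed coat (5 of 6 tested), 1 had both OE libraries below CR and 0 above, beside 18.1% and 20.5% of all genes. The flavonoid median was -0.73, and -0.12 without CR79. The separated gene was CHI (LOC_Os03g60509), chalcone isomerase. It had 43.3 and 50.9 CPM in OE78 and OE79, against 80.2 and 75.6 in CR78 and CR79, and 60.0 in WT (log2 fold change -0.73, SE 0.166, edgeR adjusted p = 0.524). Embryo and shoot meristem genes (6 of 6 tested) summed to 37.3 to 49.0 CPM in OE and 32.6 to 54.0 CPM in CR, and anther genes (3 of 6) to 41.2 to 48.4 CPM in OE and 37.5 to 40.8 CPM in CR. The housekeeping gene ACT1 (LOC_Os03g50885), an actin, had 589 and 583 CPM in OE, against 528 and 607 in CR. The other members of its list, LOC_Os03g08010 and LOC_Os03g08020, had ratios of summed reads, OE over CR, of 1.15 and 1.14. The housekeeping list (3 of 3 tested) had a median of 0.19, at -0.09 for OE78 over CR78 and 0.48 for OE79 over CR79. The part of tissue makeup in the heat, defence and cell cycle differences was not tested.

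The place of WT showed which side stood apart. Among genes at 5 CPM or more with no overlap and at least a 2-fold difference, 155 were above CR in OE. WT was within or beyond the OE side in 70 of these (45.2%), between the sides in 35 and within or beyond the CR side in 50 (32.3%). Of 211 genes below CR in OE, WT was with the OE side in 55 (26.1%), between in 66 and with the CR side in 90 (42.7%). Genes of both directions thus included both OE departures and CR departures from the single WT library.

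The same contrast at 72 HAF came from other libraries of the same lines. OE over CR at 48 and at 72 HAF correlated at r = 0.22 across the 18343 genes, again a description across genes. Of the 155 genes above CR at 48 HAF, 83 had both OE libraries above at 72 HAF and 9 below, beside 23.4% and 25.9% of all genes. Of the 211 below CR at 48 HAF, 105 (49.8%) had both OE libraries above CR at 72 HAF and 48 below. Of the 12 tested phytoalexin genes 9 had both OE libraries above CR at 72 HAF and 0 below, with a median of 2.46. In the chitinase and PBZ1 list 4 of 12 were above and 0 below, with a median of 0.69, and Cht1, Cht3 and Cht6 overlapped between the sides. PBZ1 passed the test there, at 111 CPM in OE78 and 188 in OE79, against 28.6 in CR78 and 28.4 in CR79 (edgeR adjusted p = 0.0136). HsfA2c had the sides in the opposite order, with 94.9 CPM in OE78 and 45.8 in OE79 at 72 HAF, against 31.2 in CR78 and 20.8 in CR79, and the small heat shock protein median was 0.37.

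A test of the difference between the 2 times, 48 minus 72 HAF, found 6 genes (0.0225%) at an adjusted p under 0.05, and 2590 (9.73%) at an unadjusted p under 0.05. HsfA2d was one of them. It was lower in OE at 48 HAF, as given above, and higher at 72 HAF, at 63.3 CPM in OE78 and 47.0 in OE79, against 19.5 in CR78 and 12.3 in CR79 (difference of log2 fold changes -3.74, edgeR adjusted p = 0.0467). The HsfA2d call was lost with limma voom (adjusted p = 0.0788). It was also lost in edgeR at a minimum count of 50 (adjusted p = 0.0597) and without WT (adjusted p = 0.0571). With the targeted gene as a replicate block the HsfA2d call was lost as well (edgeR adjusted p = 0.188). Leaving out CR78 at 48 HAF also lost it, with a difference of -3.51, as did leaving out most of the other OE or CR libraries singly. LOC_Os01g50910 had the smallest adjusted p of the 6, 0.00441. It had 29.3 and 35.8 CPM in OE78 and OE79 at 48 HAF, against 69.1 and 63.1 in CR78 and CR79, while at 72 HAF it had 46.5 and 52.2 CPM in OE, against 7.71 and 5.46 in CR. In LOC_Os02g01010 the sides overlapped at 48 HAF, with 86.4 and 110.1 CPM in OE, against 87.5 and 94.3 in CR, and at 72 HAF it had 162 and 178 CPM in OE, against 610.2 and 612 in CR. HsfA2c, at a difference of -4.08, missed the threshold (edgeR adjusted p = 0.065).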

How the data were processed

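RNA was measured in developing rice seeds without husk, with 1 library for each of 5 genotypes at 48 and 72 HAF. The deposited values are raw counts, not normalized, for 55801 features, 15472 of them with no read. Per the submitters' processing notes, TopHat2 and HTSeq were used, and versions are missing there. The genome build, the annotation and whether strand was used are not given in the sources read here, so reads of close, overlapping or antisense genes may be split or merged. Nothing in the labels says whether a library pools plants.

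Genes were filtered with edgeR 4.0.16 in R 4.3.3 at a minimum count of 10 (26632 tested) and scaled by TMM. The quasi-likelihood test was two-sided, p-values were adjusted by Benjamini-Hochberg over the 26632 genes, and calls were made at 0.05. It was fitted over the 10 libraries with 1 mean for OE, CR and WT at each time, leaving 4 residual degrees of freedom. The biological coefficient of variation was 22.15%. WT, with 1 library a time, gives no residual. Ratios within a pair used CPM plus 0.5. Totals over all libraries were 12267337 to 18040600 counts. The scripts were tested on simulated data. Alternatives were other scalings, DESeq2 1.42.0, limma 3.58.1 (voom), other filters, fewer libraries, a replicate block and leaving out each library.

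Gene lists and members were chosen with earlier results of these data known. Of 340 pairs of name and identifier, 255 passed a check of the name against its neighbours' places in the RefSeq table within 2 Mb, 79 names were missing, and 6 contradicted or absent pairs were dropped. No identifier stood in that table, and the text names only pairs that passed, with MADS78 and MADS79. The rule for named genes took both targeted genes, genes past the threshold at 5 CPM or more (or else the 5 with the smallest p a direction that meet the other conditions), the 2 most abundant members of each list where none passed, and up to 5 genes past the test between times. Not every gene it took is printed, and others were named after their values were seen: among them the heat genes besides HSP24.1, HSP18.0, HsfA2c, HsfA2d, the phytoalexin and chitinase genes besides PBZ1 and Rcb4, the MCM genes, SUS4, CIN1, MADS6, MADS14, MADS29, RBCS1, ABA8ox3, KRP1, KRP3, DREB2A, ACT1 and LOC_Os09g36500.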

Additional observations from a re-analysis of the deposited data

Results flagged for a closer look

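In 6 genes the OE over CR difference itself differed between 48 and 72 HAF past the threshold of edgeR's quasi-likelihood test, each value being the log2 fold change at 48 HAF minus that at 72 HAF. LOC_Os01g50910 had -3.92 (adjusted p = 0.00441), with OE below CR at 48 HAF and above it at 72 HAF. HsfA2d had -3.74 (adjusted p = 0.0467), also with OE below CR at 48 HAF and above it at 72 HAF. LOC_Os09g36500 had -3.94 (adjusted p = 0.0467). It stood at 4.24 CPM in OE78 and 7.74 in OE79, against 24.8 in CR78 and 19.2 in CR79 at 48 HAF, and at 20.2 and 25.6 CPM in OE, against 6.22 and 4.67 in CR at 72 HAF. LOC_Os04g45340 had -5.22 (adjusted p = 0.0323), at 2.58 and 3.67 CPM in OE, against 6.49 and 5.22 in CR at 48 HAF, and at 9.21 and 12.3 CPM in OE, against 0.608 and 0.44 in CR at 72 HAF. LOC_Os04g56995 had -2.39 (adjusted p = 0.033), at 29.8 and 27.5 CPM in OE, against 37.0 and 32.1 in CR at 48 HAF, and at 16.5 and 16.4 CPM in OE, against 3.65 and 3.88 in CR at 72 HAF. LOC_Os02g01010 had 1.96 (adjusted p = 0.0467), and its difference lay at 72 HAF, where OE was below CR. In each of these genes the difference between times had the same sign within the MADS78 pair and within the MADS79 pair. With limma voom only LOC_Os01g50910 passed the threshold.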

How the results depend on the processing

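The counts of calls depended on the tool, the filter and single libraries. Higher and lower in OE at 48 HAF, DESeq2 called 33 and 69 genes, edgeR without a filter on low counts 157 and 275, and limma voom 0 and 0 (1997 genes at an unadjusted p under 0.05), against 1 and 1. The 2 genes called with the filter were among the DESeq2 calls and among the 432 without a filter, and all 102 DESeq2 calls were among those 432. Fits of the 4 libraries compared or of the 5 libraries at 48 HAF gave 0 and 0 (1494 and 1571 genes at an unadjusted p under 0.05). Scaling by DESeq2 size factors, a minimum count of 50 and leaving out both WT libraries each gave 1 higher and 0 lower. Leaving out a library gave 0 to 1 higher, with 0 without CR78 and without CR79 at 48 HAF, and 0 to 1 lower, with 1 only without CR79 at 48 HAF, where the gene called was HSP101 and not LOC_Os03g52940. The test between times gave 6 genes, against 542 with DESeq2, 1003 without a filter, 1 with voom, 3 at a minimum count of 50 and 3 without WT. Leaving out a library gave 0 to 164 (0 without OE79 at 72 HAF, 44 without CR78 at 72 HAF, 164 without OE79 at 48 HAF and 1 to 3 for the remaining 5). At 48 HAF 0 members of the fixed lists passed, against 6 with DESeq2 (5 of them heat genes, HsfA2c, HsfA2d, HSP18.0, HSP24.1 and HSP26.7, besides LOC_Os01g50910), 20 without a filter and 0 to 1 when a library was left out. The cause of these changes was not tested.

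The line labels share only a targeted gene (MADS78 or MADS79) across sides, with 2 pairs at a time, and deviations of OE78 from OE79 and of CR78 from CR79 correlated at -0.21 over 18343 genes, so these numbers were not taken to pair the libraries. With the targeted gene as a replicate block, edgeR called 0 higher and 0 lower at 48 HAF (1348 genes at an unadjusted p under 0.05) and 0 between times.

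Over 114 gene results, 1858 of the recomputed values kept their direction and side of the threshold, 69 no longer passed, 61 newly passed and 39 turned sign. Log2 fold changes of the following genes turned sign when a library was left out, with these ranges: MADS79 -0.785 to 0.0601, LOC_Os09g02780 -0.672 to 0.12, MADS7 -0.159 to 0.0852, SWEET11 -0.463 to 0.0341, LOC_Os07g08420 -2.26 to 0.76, GluA3 -1.42 to 4.73, BiP1 -0.109 to 0.477, AGO1b -0.112 to 0.265, CesA1 -0.146 to 0.115, CslF6 -0.545 to 0.0539, PIP2-1 -0.275 to 0.0371, PIP1-1 -0.145 to 0.147. The further ranges were TAA1 -0.327 to 0.0699, SLR1 -0.0302 to 0.0936, GID2 -0.065 to 0.125, CKX2 -0.486 to 0.0367, DHN1 -0.869 to 0.135, GW2 -0.194 to 0.219, LOC_Os05g06660 -0.159 to 0.119, LOC_Os04g56700 -0.297 to 0.0648, OSH1 -0.0455 to 1.23, CYP703A3 -0.596 to 0.494, LOC_Os02g01010 -0.0723 to 0.277. HSP101 ran from -3.5 to 0.177, and above 0 only without CR78 at 48 HAF. GluA3 was 0.741 with voom. PIP1-1 was -0.0059 with 4 libraries, -0.0062 with 5, -0.018 with the replicate block and -0.011 without WT, and GW2 was 0.0043 with upper quartile scaling and 0.00999 with voom. LOC_Os03g52940 kept its call only with upper quartile scaling, DESeq2 and no filter. Read depth limits what can be said of MADS78, GluA3 and the storage genes, which had few reads or none.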

Other observations

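The change of WT seeds from 48 to 72 HAF, in libraries outside the contrast, gave a view of whether the OE and CR sides differed along the course of development. Across the 18343 genes at 5 CPM or more, OE over CR at 48 HAF correlated with WT 72 over 48 HAF at r = -0.098, and OE over CR at 72 HAF correlated with it at r = -0.471. Both are descriptions across genes, which are not independent replicates. LOC_Os01g50420, listed as a MAP3K gene by a name that could not be checked, had the sides in opposite order at the 2 times. It had 37.6 CPM in OE78 and 80.8 in OE79, against 142 in CR78 and 105 in CR79, and 161 in WT at 48 HAF. At 72 HAF it had 30.4 and 42.2 CPM in OE78 and OE79, against 2.43 and 0.528 in CR78 and CR79, and 13.4 in WT (edgeR adjusted p = 0.0169 at that time). LOC_Os05g51570 had 104.5 CPM in OE78 and 134 in OE79, against 175 in CR78 and 222 in CR79, and 244 in WT at 48 HAF, with 484 and 312 CPM in OE, against 226 and 253 in CR at 72 HAF.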
